A study of Mus musculus with 10 samples.

Results

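Of the 5209 SOX9 peaks listed for interfollicular epidermal (IFE) cells, 1240 (23.8%) met both conditions that define the regions described here. They overlapped no peak of either list from hair follicle stem cells (HFSCs), by 1 bp or more, and they lay more than 1 kb from the start and the end of every gene locus in the expression table. They were chosen by the listed peak positions of 1 IFE library and 2 HFSC libraries and by locus coordinates, so their number and their lack of an HFSC match are descriptions, and no test between the cell types was possible.

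SOX9 is a transcription factor of the SOX family, which binds DNA through an HMG box and bends it. In skin it is known as a factor of the hair follicle lineage, made in the early hair bud and kept in the stem cells of the bulge, the resting niche of the follicle. Basal cells of the interfollicular epidermis renew the skin surface between follicles and give rise to keratinising layers. Transcription factors of this kind bind both at gene starts and at distant enhancers inside introns or between genes.

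SOX9 binding was mapped by ChIP-seq (sequencing of DNA recovered with an antibody to SOX9), with 2 HFSC libraries and 1 IFE library, all from telogen back skin of untreated CD-1 females of day 52 to 60. HFSCs were sorted as integrin α6hi, CD34+, ScaI- cells and IFE cells as integrin α6hi, CD34-, ScaI- cells. Expression was measured by RNA sequencing in 4 HFSC libraries, 2 labelled Sox9 conditional knockout (cKO) and 2 control, from YFP+ cells of the same HFSC gate in mice of a mixed C57BL6 background. All 4 came from animals given RU486, which activates the Cre recombinase CrePGR. Controls are called heterozygous in the titles and wild type in the genotype field, and the sources used here do not give the promoter that drives the Cre. Replicate 1 of each genotype was male, day 75, with RU486 on days 48 to 61, and replicate 2 female, day 80, with RU486 on days 53 to 66. They also do not say whether a library pools several mice, so the spread between libraries may be partly technical.

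No RNA of IFE cells was among the data, so the label of these cells could not be checked against their markers. Sca-1, encoded by Ly6a, is commonly used as a positive marker of this epidermis, whereas the gate in the labels is negative for it. Every expression value below is from HFSCs. The bulge markers Krt15 and Cd34 stood between 8703 and 10894 FPKM (fragments scaled by transcript length and by the library's mapped fragments) and between 460 and 680. Ly6a, for which the gate is negative, stood between 23.8 and 45.8 FPKM in these libraries. Sox9 itself stood at 82.7 FPKM in the male control and 71.3 in the male library labelled cKO, and at 46.5 in the female control and 80.5 in the female library labelled cKO. Sox9 was thus not lower in both libraries labelled cKO, and directions below follow the labels. Reads behind each library are not given, so the depth of peaks and of FPKM values is unknown.

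The lack of an HFSC match was set beside the match between the HFSC lists themselves. Among peaks away from locus edges, 48.2% of the 2844 IFE peaks had no overlap in HFSC list 1 (95% interval 46.4 to 50.1) and 71.1% had none in list 2 (69.4 to 72.7). Of the 6474 such peaks in HFSC list 1, 79.4% had no overlap in HFSC list 2 (78.4 to 80.4). Of the 1582 in list 2, 15.9% had none in list 1 (14.2 to 17.8). The mismatch of list 1 with the other HFSC replicate was larger than that of the IFE list with either HFSC list. The lists differ in length, with 8181, 2989 and 5209 peaks, and all intervals here are exact binomial intervals that cover counting error only. Without HFSC list 1, 2021 peaks would meet the definition in place of 1240. In the plot of unmatched shares, the IFE bars lie between the HFSC ones.

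**Figure D1:**
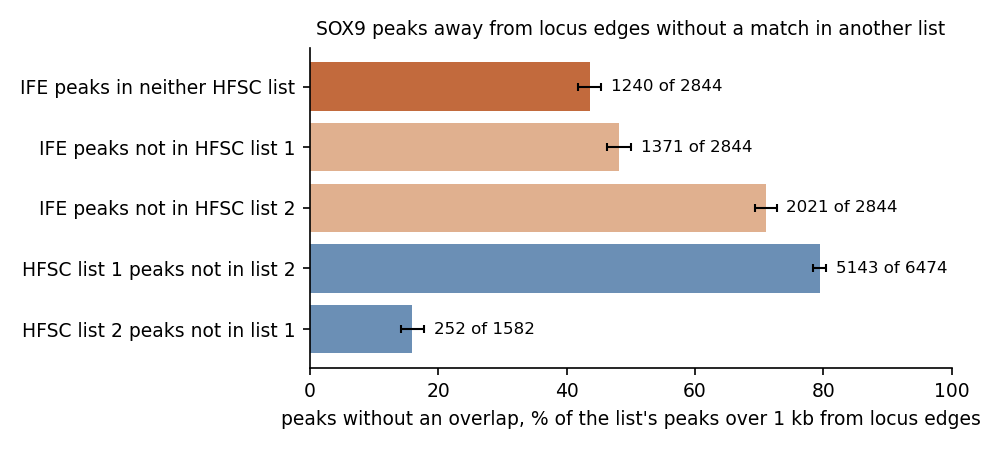
Share of each list's SOX9 peaks over 1 kb from locus edges that overlap no peak of the list or lists named on the vertical axis (horizontal axis, %). Bars are shares of 1 list each, error bars exact 95% binomial intervals, and the numbers give the peaks behind each share. HFSC list 1 against list 2 has the longest bar (79.4%) and HFSC list 2 against list 1 the shortest (15.9%).

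Among the IFE peaks away from edges, 43.6% (41.8 to 45.4) were IFE-only, and among the 2365 IFE peaks within 1 kb of an edge, 47.0% (45.0 to 49.1). The members just beyond the 1 kb limit lay at 1003 bp (chr4:106584308-106584840, in Ssbp3), 1003 bp (chr1:23769594-23769994) and 1008 bp (chr17:47066248-47066746, in Ubr2) from an edge. The nearest IFE-only peaks inside the limit lay at 991, 984 and 981 bp. Coordinates are those of the deposited mm9 files, counted from 1.

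The 1240 peaks were narrow. Their median width was 453 bp (quartiles 367 and 554), against 522 bp for the 1604 IFE peaks away from edges that did overlap an HFSC peak. With the IFE peaks away from edges split into 4 equal classes of width, the IFE-only share went from 54.5% in the narrowest class (50.7 to 58.1) to 27.9% in the widest (24.6 to 31.3). A wider interval is more likely to touch another one by its length alone, so the order is partly set by the definition. HFSC list 1 against list 2 gave the same order, from 94.6% in its narrowest class to 54.0% in its widest, and list 2 against list 1 went from 19.3% to 12.2%. The files give no peak height or score, so strength could not be set beside width.

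**Figure D2:**
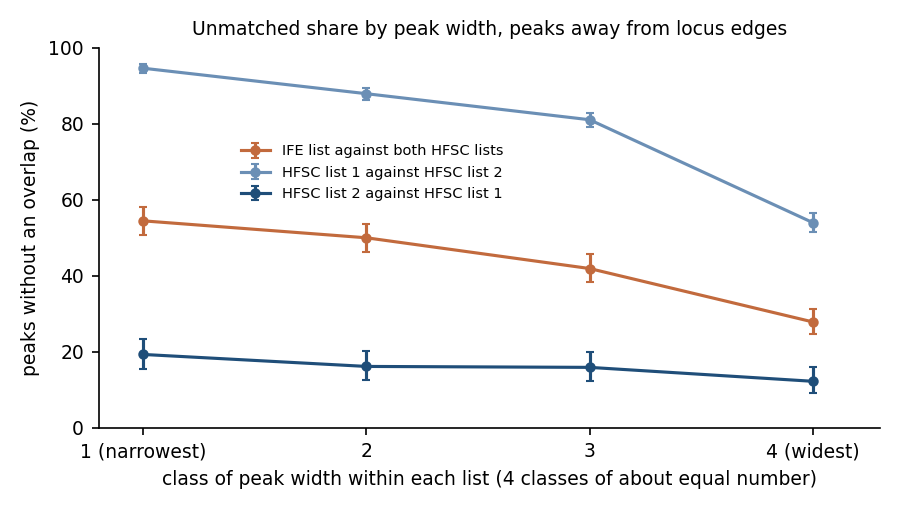
Percentage of peaks without an overlap (vertical axis) by class of peak width within each list, 4 classes of about equal number, (horizontal axis), for peaks over 1 kb from locus edges. Points are shares of 1 list and bars exact 95% binomial intervals. All 3 lines fall from the narrowest to the widest class, the IFE line from 54.5% to 27.9%.

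The members mostly lay far from HFSC peaks. The median gap to the nearest HFSC peak of either list was 49.5 kb, with quartiles of 15.1 and 129 kb. Only 41 members (3.31%) had an HFSC peak within 1 kb, 141 (11.4%) within 5 kb and 623 (50.2%) within 50 kb. The closest lay 27 bp away (chr4:43052840-43053299), followed by 92 bp (chr12:109191510-109191812, in Bcl11b, a zinc finger factor of epidermis and T cells) and 94 bp (chr11:99927918-99928432). As a measure between replicates, HFSC list 2 peaks without a list 1 match lay a median of 42.9 kb from the nearest list 1 peak, and HFSC list 1 peaks without a list 2 match 123 kb from the nearest list 2 peak. The member curve in the plot of gaps runs close to the first of these. The lists searched differ in length, which sets part of these distances.

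**Figure D3:**
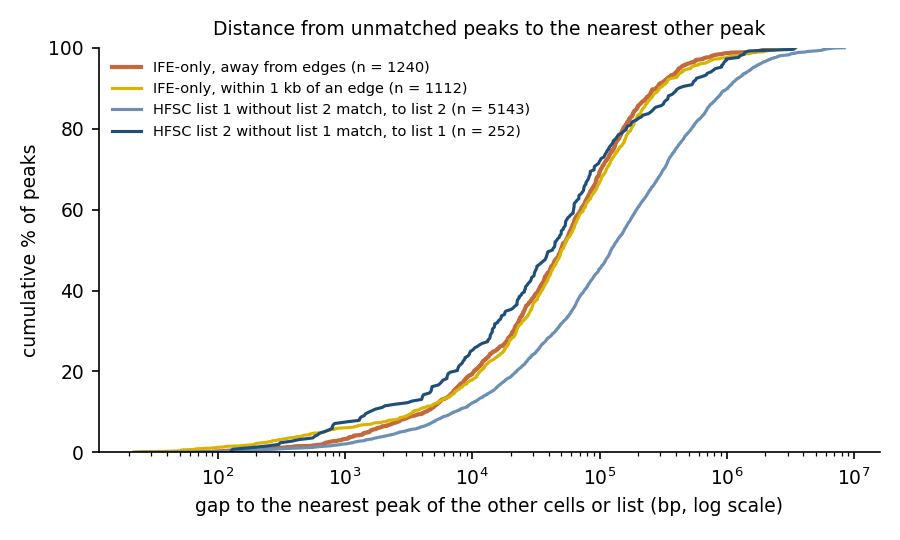
Cumulative percentage of peaks (vertical axis) by the gap in bp to the nearest peak of the other cells or list (horizontal axis, log scale). Lines are 4 sets of unmatched peaks, with their numbers in the legend, and IFE-only peaks are measured to both HFSC lists together. The 1240 members reach 50.2% at 50 kb, near the IFE-only peaks at edges and left of HFSC list 1 against list 2.

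Inside gene loci lay 800 of the 1240 peaks (64.5%, 61.8 to 67.2), and 440 lay between loci. The share was 61.2% (58.7 to 63.6) for the IFE peaks away from edges shared with HFSCs, 49.5% (48.1 to 50.9) for HFSC list 1 peaks away from edges with no IFE overlap, and 51.6% (48.03 to 55.19) for those of list 2. In these 1 IFE and 2 HFSC lists, IFE peaks of both kinds were more often inside loci than HFSC peaks without an IFE match. The intervals cover counting error within a list only, and a difference between the cell types was not tested. With only the edges of genes at a mean of 1 FPKM or more counted, the share of members inside was 52.4%. The other classes were not recomputed with these edges.

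The locus coordinates need care, because the table gives neighbouring genes that overlap a single merged locus. The longest, on chromosome 8 from 122434259 to 126869624, carries 159 gene rows and 20 members, and one on chromosome 7 from 137305964 to 140316037 carries 42 gene rows and 9 members. Edges inside a merged locus are not seen, so a member there can lie at the start of a gene. A gene was therefore given a peak only where its coordinates were its own or matched its RefSeq length to within 0.8 to 1.25 times. By this measure 546 members (44.0%) lay in the locus of a gene that could be named, and 254 (20.5%) in 199 merged loci where none could. Exons and introns are not given in the files.

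The 546 placed peaks fell in 501 host gene rows, of which 459 held 1 member, 37 held 2 and 5 held 3. Of the 475 with a RefSeq entry, 461 were protein-coding. An HFSC peak lay wholly inside the same locus for 193 of the hosts (38.5%), and with peaks across a locus edge counted too, 229 (45.7%) were touched by one and 272 were not. A locus is said below to hold a peak only where the peak is wholly inside. Long loci hold more peaks of any kind, and among loci of at least 20 kb 41.6% of the 450 hosts (37.0 to 46.3) held an HFSC peak against 18.8% of all 8174 such genes (17.9 to 19.6). With peaks across edges counted, the shares were 48.2% (43.5 to 52.9) and 28.7% (27.7 to 29.7).

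The 5 genes with 3 members each were Pmepa1, Pitpnm2, Rhobtb1, Tmem131 and Trio. Pmepa1 encodes a membrane protein that limits TGF-β signalling, and its members at chr2:173070358-173070838, chr2:173071252-173071635 and chr2:173089090-173089643 lay within 19.3 kb of each other. Its locus held 1 peak of HFSC list 2 as well. Tmem131 held its members within 28.6 kb, with no HFSC peak in the locus and the nearest 89868 bp away. In Trio, which encodes a guanine nucleotide exchange factor, chr15:27855604-27856027 and chr15:27856614-27856992 stood together and the third lay at chr15:27953976-27954492. The nearest HFSC peak was 294852 bp or more from each of them. Pitpnm2 likewise held no HFSC peak, and Rhobtb1 held 1 of list 1.

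Of the 1240 members, 1000 had no other member within 50 kb. Members chained by gaps of at most 50 kb formed 95 pairs, 14 runs of 3 and 2 runs of 4. A run of 4 spanned 98.8 kb at Spred2 (chromosome 11, 19761610 to 19860373) and the other 54.3 kb on chromosome 15 (36814359 to 36868697), and no window of 50 kb held more than 3 members. The densest run of 3 spanned 8.06 kb on chromosome 8 (126604404 to 126612465) inside the longest merged locus, where Spg7 is among the genes. The next spanned 9.63 kb on chromosome 3 (101117182 to 101126813), 25.3 to 34.6 kb from Cd2, a T cell surface gene and the nearest protein-coding locus. A run of 12.6 kb on chromosome 7 (122454338 to 122466982) lay 148 to 160 kb from Sox6, which encodes another SOX factor. The remaining dense runs were at 31740784 to 31758987 on chromosome 7, in a merged locus that includes Lsr, and at 112802037 to 112820613 on chromosome 13, in or next to Gm15323 and 203 to 221 kb from Map3k1.

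HFSCs expressed most of the host genes that could be placed. The median of the control means was 9.25 FPKM (quartiles 2.19 and 23.9), and the library medians were 11.3 in the male control, 10.5 in the male library labelled cKO, 6.86 in the female control and 6.43 in the female library labelled cKO. Of the 501 hosts, 400 (79.8%, 76.1 to 83.3) had a mean of at least 1 FPKM, against 38.8% of all 37298 gene rows and 39.7% of the 25997 that could be given a peak. With every gene row of a merged locus counted, the 1878 host rows had a median control mean of 1.81 FPKM. Among these, 53.7% (51.4 to 56.0) reached 1 FPKM, so the level depends on the placement. Placed hosts of IFE peaks shared with HFSCs had a higher median than the 501, 15.4 FPKM, with 86.5% (83.6 to 89.1) at 1 FPKM or more. Hosts of HFSC list 1 peaks without an IFE match stood at 10.3 FPKM and 78.0% (75.6 to 80.3). As hosts of both an IFE-only and a shared peak away from edges, 95 genes made up 18.96% of the former set and 15.42% of the latter, while hosts of shared peaks are 2.37% of all rows that could be given a peak. Hosts of HFSC list 1 peaks without an IFE match had 139 genes in common with the IFE-only hosts, 27.7% of the IFE-only hosts and 11.3% of the others, and they are 4.74% of all such rows. The 2.37% and 4.74% are not matched for locus length or expression. The median locus was 74.7 kb for the IFE-only hosts and 6.51 kb for all such rows. In loci of 20 to 50 kb, 83.2% of hosts (75.5 to 89.3) and 60.9% of all genes of that length (59.4 to 62.5) reached 1 FPKM. Listed at 0 in all 4 libraries were 8 hosts, 19 had a control mean of 100 FPKM or more.

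Over the whole table, 501 of the 25997 rows that could be given a peak were hosts (1.93%). Among the 10309 with a mean of at least 1 FPKM, 400 were (3.88%). The list counts below are descriptions beside these shares, which are not matched for locus length, and long loci hold more peaks of any kind. Listed genes in merged loci with members could not be given a peak and are not counted as hosts. Genes of the epidermal program stood among the hosts. Of the 24 genes listed for basal keratinocytes 5 were hosts, and of the 28 for epidermal differentiation 1 was. Klf4, a zinc finger factor that drives barrier formation, held chr4:55542267-55542721 and chr4:55543224-55543894, 2258 and 1085 bp from a peak of HFSC list 1 that overlaps an edge of its locus. Its FPKM was 424 in the male control, 472 in the male library labelled cKO, 268 in the female control and 198 in the female library labelled cKO. The levels were high in all 4, and the pairs moved in opposite directions.

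Dst encodes dystonin, which ties keratins to hemidesmosomes in its epithelial form, and held members at chr1:34068214-34068460 and chr1:34199887-34200666. Its locus also held 4 peaks of HFSC list 1 and 2 of list 2. Dst stood at 309 and 272 FPKM in the male control and the male library labelled cKO and at 114 and 96.4 in the female ones. Lama3, which encodes a laminin chain of the basement membrane, held 1 member, 1408 bp from an HFSC peak, and stood at 60.6 and 67.4 FPKM in the male control and the male library labelled cKO and at 22.5 and 24.7 in the female ones. Thbs1, for the matrix protein thrombospondin, held chr2:117938654-117939451 and chr2:117950135-117950638, with no HFSC peak closer than 54339 bp. It stood at 149 and 245 FPKM in the male control and the male library labelled cKO and at 62.3 and 64.9 in the female ones. The male values of these genes were above the female values in both genotypes, as were the medians over all hosts. Sex cannot be told apart from age, RU486 days and replicate here.

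Genes of the bulge and of the hair program were hosts as well, 3 of 28 bulge genes (Barx2, Foxp1, Gli2) and 3 of 16 genes of the hair shaft and inner root sheath (Vdr, Cux1, Foxn1). Barx2, a homeobox gene of the follicle, held chr9:31663296-31663778 beside 4 peaks of HFSC list 1 in the same locus. It stood at 57.8 and 43.7 FPKM in the male control and the male library labelled cKO and at 70.4 and 56.8 in the female ones. Foxp1 held 1 member (chr6:98978150-98978516) beside 7 peaks of HFSC list 1 and 2 of list 2. Vdr, the vitamin D receptor that the hair cycle requires, held chr15:97738690-97739280 beside 6 peaks of HFSC list 1 and 1 of list 2. Foxn1, the nude gene, which drives hair keratinisation, held chr11:78198231-78198584 and no HFSC peak, and its FPKM was at most 1.62 in any library. Hr, the hairless gene and a partner of Vdr, held 2 members (chr14:70959603-70960202 and chr14:70961960-70962580) and 1 peak of each HFSC list.

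Placed hosts in signalling pathways were few in each. Not counted, because they lay in merged loci with members, were Tcf7, Wnt7b, Dll1, Notch1, Shh, Acvr2a, Bmp4, Ltbp3, Btc and Fgfr2. In the WNT list of 53 genes the hosts were Wnt4 and Wnt5b, both ligands, and both members stood close to an HFSC peak. The Wnt4 member at chr4:136837090-136838079 was 990 bp wide and 297 bp from one, and the Wnt5b member at chr6:119429953-119430287 was 126 bp from one. A second member lay 17.1 kb from the Wnt4 locus (chr4:136815777-136816310). Wnt4 stood at 16.9 FPKM in the male control and 24.4 in the male library labelled cKO, and at 11.8 and 17.5 in the female ones. Both pairs were higher in the library labelled cKO, by 0.50 and 0.53 on the log2(FPKM + 1) scale.

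Of the 22 Notch genes, 4 were hosts: the ligand Jag2, the receptor Notch3, the DNA-binding partner Rbpj and the coactivator Maml3. Rbpj held the widest of all 1240 peaks, 1763 bp at chr5:53980379-53982141, with no HFSC peak within 117950 bp. It stood at 21.4 and 16.1 FPKM in the male control and the male library labelled cKO and at 10.6 and 7.37 in the female ones. The Jag2 member (chr12:114165436-114165985) lay 335 bp from an HFSC peak, and Jag2 stood between 52.1 and 81.6 FPKM. Notch3 (chr17:32299142-32299606) had its nearest HFSC peak 121531 bp away and stood between 3.75 and 5.55 FPKM.

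Hedgehog hosts were Ptch1, the receptor, and Gli2, a transcription factor of the pathway, 2 of 15 listed genes in the table. Ptch1 held chr13:63664353-63664789 and chr13:63669037-63669777, more than 131 kb from any HFSC peak, and stood at 21.6 and 17.1 FPKM in the male control and the male library labelled cKO and at 10.3 and 9.08 in the female ones. In the TGF-β, activin and BMP list of 43 genes the hosts were the ligand Bmp7 with 2 members, the signal transducer Smad5 and the receptor Bmpr1b. Bmp7 (chr2:172753085-172753537 and chr2:172763185-172763508) stood between 6.95 and 10.6 FPKM. Bmpr1b stood at 0.178 FPKM or less in all libraries. In the EGF and FGF list, with 36 genes in the table, the host was Spred2, an inhibitor of ERK signalling, with 1 member inside and 3 between loci for which it was the nearest gene, at 3.72 to 62.4 kb.

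Early response factors and adhesion genes included hosts with high HFSC levels. Atf3, a stress-induced bZIP factor, held chr1:192997479-192998011 and stood at 1031 and 1854 FPKM in the male control and the male library labelled cKO and at 837 and 746 in the female ones. Egr2 held chr10:67001582-67001831 and stood between 39.3 and 77.3 FPKM. They were 2 of 17 genes on their list. Of 40 adhesion and cytoskeleton genes 9 were hosts: Dst, Ptprf, Macf1, Actn1, Ctnnd1, Palld, Plec, Pard3 and Magi1. Among them, Dst, Macf1 and Palld have loci of 400, 335 and 410 kb, and Ctnnd1, Ptprf and Actn1 of 50.7, 83.2 and 92.8 kb. The median over all rows that could be given a peak was 6.51 kb, and no share matched for length was computed for this list. Actn1, which encodes the actin crosslinker α-actinin, had its member (chr12:81307223-81307846) 938 bp from an HFSC peak, and Ctnnd1, for p120-catenin, had its own (chr2:84466407-84467037) 88218 bp from one. Of the RUNX, NFI, GATA and TEAD list of 26, Nfia with 2 members, Foxp1 and Gata6 were hosts. The lists for sebaceous gland, dermal fibroblasts, melanocytes, immune cells, endothelium, the SOX family and cartilage targets of SOX9 held no host that could be placed. Cd52 of the immune list and Egfl7 of the endothelial list lay in merged loci with members. So did Jun, Mllt4, Tead1, Lrig1 and Zfp750 of the other lists.

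**Figure D4:**
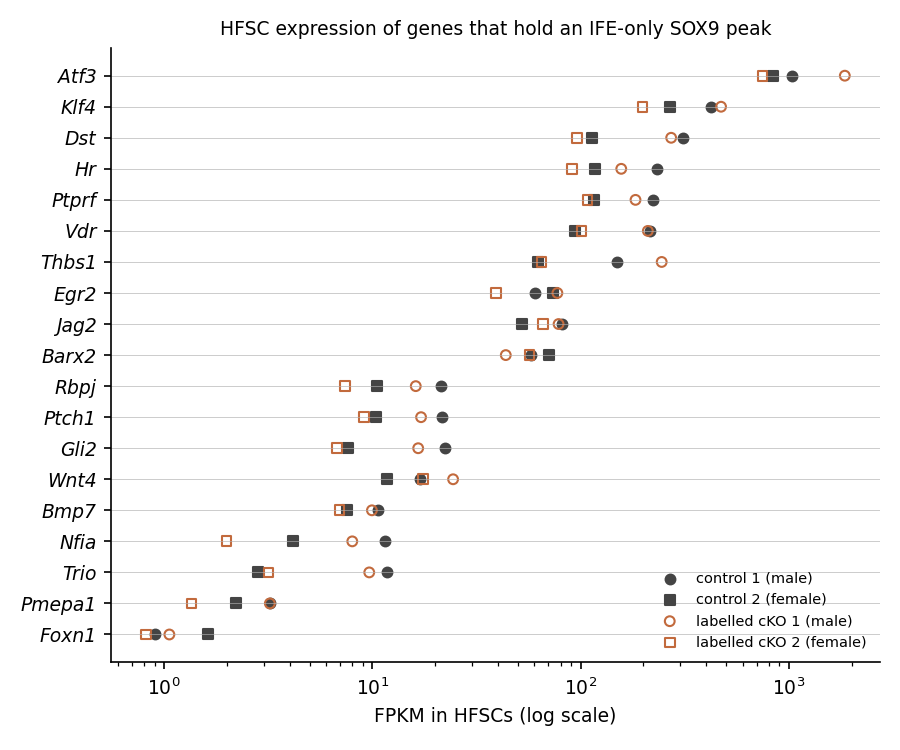
FPKM in HFSCs (horizontal axis, log scale) of 19 named host genes of IFE-only SOX9 peaks away from locus edges, ordered by their control mean. Each point is 1 library, circles male and squares female, filled control and open labelled cKO. Levels run from Foxn1, at most 1.62 FPKM, to Atf3, at 746 to 1854 FPKM, and for 16 of the 19 genes the male and female means lie farther apart than the genotype means.

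Of the 440 peaks between loci, 343 lay within 50 kb of the nearest locus and 40 beyond 100 kb. The nearest protein-coding locus was a median of 24.7 kb away. Listed genes that were the nearest locus included targets and inhibitors of BMP signalling, with a member 1.94 kb from Id1 (chr2:152565081-152565390), one 8.78 kb from Id3 (chr4:135710449-135711009) and one 3.07 kb from Ski (chr4:154524602-154525116). Id1 stood between 168 and 275 FPKM and Id3 between 300 and 475. Involucrin, Ivl, a cornified envelope gene, had a member at 16.2 kb (chr3:92358314-92358656) and the nearest HFSC peak 318 kb away. Tcfap2c, which encodes the epidermal factor AP-2γ, had members at 1.45 and 103 kb, with the nearest HFSC peaks 254 and 152 kb away. Other such genes were Itga3, Ereg, Smo, Fos, Sox4, Wnt7a, Myh9, Foxo1 and Tead1. Fos stood between 1346 and 4197 FPKM.

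The cKO contrast asked whether the genes around these peaks differed in HFSCs labelled as lacking SOX9. The HFSC lists held no peak at these sites, but they came from untreated CD-1 females and not from the mice of the RNA libraries. In limma on log2(FPKM + 1) with genotype alone, none of the 14455 tested genes passed an adjusted p of 0.05 in either direction (0% higher, 0% lower). A second fit, blocked on replicate number, called 15 genes higher (0.104%) and 26 lower (0.18%) under the cKO label. None of the 400 tested host genes passed in either fit. At an unadjusted p under 0.05 with genotype alone, 0 hosts were higher against 0.228% of all genes, and 1 (0.25%), Abhd12b, was lower against 0.415%. With the block, 9 hosts (2.25%) were higher against 6.33% of all genes and 30 (7.5%) lower against 5.07%. On the log2(FPKM + 1) scale, no host was at least 2-fold higher or lower in both pairs, against 0.194% and 0.277% of all genes. The added 1 matters for low genes such as Whrn, at -1.09 and -0.88 on this scale, whose plain FPKM fell further.

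The median log2 difference of the 400 hosts was -0.090, labelled cKO minus control, against -0.0064 over all tested genes, and 266 hosts (66.5%) lay below 0 against 51.1% of all. With every gene row of a merged locus counted as a host, the median over 1009 rows was -0.043, and 57.5% lay below 0. With the nearest locus within 50 kb of members between loci added, it was -0.041 over 1200 rows, and 56.9% lay below 0. The shift was thus smaller in both wider sets. Hosts of shared IFE peaks had a median of -0.047, those of unmatched HFSC list 1 peaks -0.084 and those of unmatched HFSC list 2 peaks -0.16, all from the same 4 libraries. Within the male and the female pair, the 400 hosts had medians of -0.076 and -0.081, against -0.031 and 0.030 over all tested genes. The host median changed direction with the library left out, a step that also unbalances replicate against genotype. It was -0.34 without the male library labelled cKO, 0.19 without the male control, 0.19 without the female library labelled cKO and -0.36 without the female control. In the plot of both pairs, hosts lie within the cloud of all genes.

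**Figure D5:**
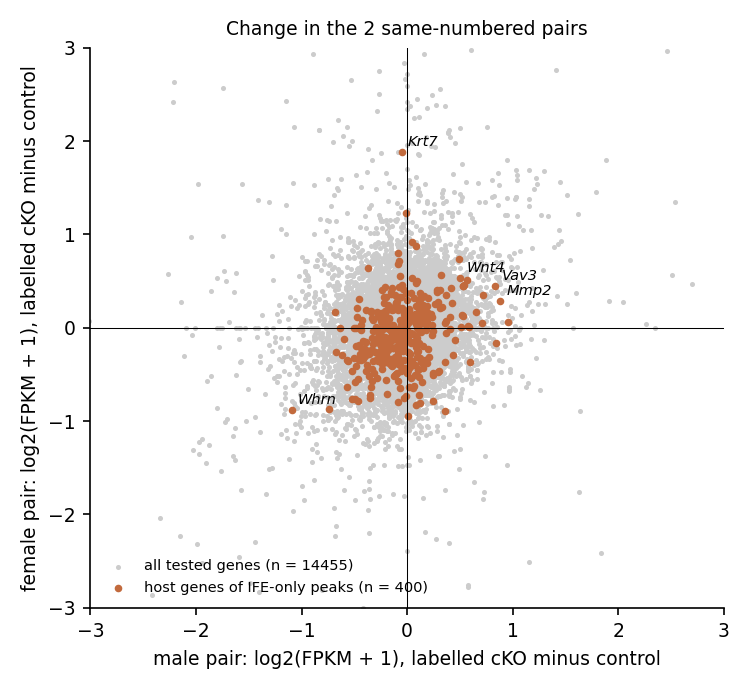
Difference in log2(FPKM + 1), labelled cKO minus control, in the male pair (horizontal axis) and the female pair (vertical axis). Grey points are the 14455 tested genes, 25 of them outside the plotted range, and orange points the 400 tested host genes of IFE-only peaks away from edges. The hosts surround 0 in both pairs, with Whrn lowest by mean difference (-0.99) and Krt7 high in the female pair alone (1.88).

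The hosts with the smallest p are named with their values, though none passed. Abhd12b, which encodes a serine hydrolase, held chr12:71268996-71269329 and stood at 35.0 and 20.6 FPKM in the male control and the male library labelled cKO and at 39.0 and 20.9 in the female ones. Its groups did not overlap, with a log2 difference of -0.80 ± 0.31 (SE, limma, genotype alone, n = 2 per group, adjusted p = 1.00). With the block, its SE was 0.14 and its adjusted p 0.094 (limma). The block leaves 1 residual degree of freedom per gene and genotype alone leaves 2. All limma SEs given here therefore rest in part on spread pooled over all genes. Whrn, for the scaffold protein whirlin, stood at 9.19 and 3.77 FPKM in the male control and the male library labelled cKO and at 3.56 and 1.48 in the female ones. Its groups overlapped across the sexes, with a log2 difference of -0.99 ± 0.56 (SE, genotype alone) and an SE of 0.21 with the block. Hosts with lower means also included 4931408A02Rik (-0.64), Mgst2 (-0.62), Slc19a2 (-0.55) and Antxr1 (-0.51).

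Among hosts with higher means, Vav3, for a guanine nucleotide exchange factor, held 2 members (chr3:109272516-109272726 and chr3:109486662-109487099). It stood at 4.35 and 8.55 FPKM in the male control and the male library labelled cKO and at 4.63 and 6.68 in the female ones. Its groups did not overlap, with a log2 difference of 0.64 ± 0.33 (SE, limma, adjusted p = 1.00). Mmp2, for a matrix metalloproteinase, stood at 51.96 and 96.69 FPKM in the male control and the male library labelled cKO and at 54.2 and 66.1 in the female ones, a difference of 0.58 ± 0.38 (SE). Wnt4, whose values are above, differed by 0.52 ± 0.37 (SE). These SEs are with genotype alone. With the block they were 0.19 for Vav3, 0.17 for Mmp2 and 0.14 for Wnt4 (limma, adjusted p 0.362, 0.341 and 0.326). Krt7, 2610307P16Rik and Mad1l1 had mean differences of 0.91, 0.61 and 0.48, with most of each from the female pair.

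When every gene row of a merged locus counts as a host, 1009 tested rows contained 1 called with the block, Sulf2, and none with genotype alone. Sulf2 was lower, which makes 0.099% of these rows against 0.18% of all tested genes. Sulf2 encodes an extracellular sulfatase that trims heparan sulfate, which binds growth factors. It stood at 24.4 and 7.09 FPKM in the male control and the male library labelled cKO and at 23.1 and 8.28 in the female ones, a log2 difference of -1.51 ± 0.16 (SE, limma with the block, adjusted p = 0.0273). Its groups did not overlap. The member (chr2:165953587-165953953) lies in a locus of 163 kb that 2 gene rows share, so it could not be placed in Sulf2 itself, and that locus also held 2 peaks of HFSC list 1 and 1 of list 2.

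Adding the nearest locus within 50 kb of members between loci gave 1200 tested rows, of which 4 were called with the block, 2 higher and 2 lower, or 0.167% in each direction. Over all tested genes the shares were similar, 0.104% higher and 0.18% lower. Beside Sulf2 the called rows were Stfa3, Fgfbp1 and Mir23a, and none of the 4 passed with genotype alone. Stfa3, of the stefin A family of protease inhibitors, stood at 7.18 and 44.0 FPKM in the male control and the male library labelled cKO and at 16.9 and 138 in the female ones. A member lay 12.7 kb from it, and since stefin A genes are near-identical copies its level is uncertain. Fgfbp1, which encodes a carrier that frees FGFs from the matrix, had a member at 11.2 kb (chr5:44358526-44358951). It stood at 53.2 and 104 FPKM in the male control and the male library labelled cKO and at 102 and 268 in the female ones, a log2 difference of 1.17 ± 0.14 (SE, limma with the block, adjusted p = 0.0357). The block called 3 of the 29 tested EGF and FGF genes higher, against 0.104% of all tested genes, and Fgfbp1 was the only one of the 3 in this set.

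Mir23a, a locus of 0.075 kb, had 2 members at 4.7 and 9.35 kb, one of them the 1015 bp peak at chr8:86722053-86723067 that stands 193 bp from an HFSC peak. It stood at 47.3 and 10.8 FPKM in the male control and the male library labelled cKO and at 18.8 and 7.01 in the female ones. FPKM of so short a locus is uncertain. In the other lists, the block called lower 1 of 28 tested bulge genes, 2 of 44 WNT genes and 1 of 4 cartilage genes, against 0.18% of all tested genes. In all the remaining lists limma called none in either fit.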

How the data were processed

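SOX9 peaks were deposited by the authors as 1 list per ChIP library, each with chromosome, start and end on mm9 and no score. The sources used here do not name the peak caller or its settings. A mitochondrial peak with a start below 0 stands in both the first HFSC list and the IFE list. Expression was deposited by the authors as FPKM, per the file headers, for 37298 gene rows and 4 libraries. Bowtie, TopHat, TopHat2 and Cufflinks 1.0.3 stand in the submitters' processing notes.

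Members and lists were chosen with earlier results of these data known. Overlap meant at least 1 bp. Shares carry exact (Clopper-Pearson) 95% intervals. Distances and shares were computed in Python 3.11.15 from the locus coordinates. Host genes were restricted, after the merged coordinates were seen, to rows with coordinates of their own or a locus of 0.8 to 1.25 times the RefSeq GRCm38.p6 length, used for lengths and gene types only. Expression differences on the log2(FPKM + 1) scale were tested in R 4.3.3 by limma 3.58.1 (two-sided, mean trend, Benjamini-Hochberg) over the 14455 genes with a mean of at least 1 FPKM, with genotype alone and with the replicate block. This log scale understates the change of low genes. The scripts were tested on simulated data.

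Replicate numbers pair the libraries by the sex, age and treatment days in the labels, and the correlation across genes of their deviations from the genotype means was 0.812. The 19 gene lists gave named hosts, up to 6 each by members and FPKM. Also named were the 12 hosts with most members, the 10 widest members, those at the 1 kb limit, the 5 densest runs, called rows and the 6 smallest p in each direction, with host genes restricted as above. Other genes next to members were named after their values were seen. Low FPKM values gave no common step from which reads could be recovered (the fullest bin held 1.62% of ratios between libraries), so depth is unknown. Sequences of the peaks and the 3 input libraries were not analysed here, and some hosts that the naming rule would give are not reported here. Alternatives covered overlap, edge distance, edges of expressed genes, width, HFSC lists left out, pseudocount, filter, normalization, block and libraries left out.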

Additional observations from a re-analysis of the deposited data

Results flagged for a closer look

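Of the 53 named genes that were tested, 16 had opposite signs in the male and the female pair, and the difference between the pairs was not tested in any of them. Values are labelled cKO minus control on the log2(FPKM + 1) scale. Krt7 differed by -0.051 in the male pair and by 1.88 in the female pair. The host 2610307P16Rik differed by -0.012 in the male pair and by 1.23 in the female pair. Sox9 differed by -0.21 in the male pair and by 0.78 in the female pair. Atf3 stood at 0.85 in the male pair and -0.17 in the female pair, and Egr2 at 0.35 and -0.90. The other differences above 0 in the male pair and below 0 in the female pair were 0.13 and -0.81 for Cux1, 0.11 and -0.53 for Foxn1, 0.0040 and -0.45 for Pmepa1, and 0.15 and -0.43 for Klf4. They were also 0.20 and -0.23 for Notch3, 0.041 and -0.16 for Ctnnd1, 0.052 and -0.071 for Spred2, and 0.24 and -0.031 for Ptp4a2. Below 0 in the male pair and above it in the female pair were Jag2 at -0.059 and 0.33, Trio at -0.26 and 0.12, and Vdr at -0.029 and 0.097.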

How the results depend on the processing

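The number of members was 1240, and 1371 to 2021 when 1 HFSC list was left out. It was 390 among IFE peaks of at least the median width, of which 71.3% lay inside a locus. That share was 52.4% with the edges of expressed genes only. The replicate block called 41 genes in all, 1 host row, and 4 rows of the host or nearest set, against 0 with genotype alone. Leaving out 1 RNA library gave 2 to 41 called genes, 0 to 1 host rows and 0 to 3 of the wider set. It moved the median log2 difference between -0.15 and 0.053 over all host rows, -0.36 and 0.19 over placed hosts and -0.14 and 0.038 over the wider set. For placed hosts the median was -0.10 and -0.065 at pseudocounts of 0.1 and 5, -0.065 without a filter and -0.071 after quantile normalization. Sulf2 (-1.51) passed only with the block, and Sox9 ranged from -0.13 without control replicate 2 to 0.69 without control replicate 1. Of 150 single-gene values, 148 kept their direction and side of the threshold. The block changed no other call among these. With 1 IFE list, no spread between IFE replicates could be given.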
